A study of Mus musculus with 6 samples.

Results

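Interferon receptors and the JAK and STAT proteins beneath them were examined in CT26.mMR1, a colorectal tumor line of the mouse that overexpresses mouse MR1, and in M8, a mutant clone of this line. The 9 genes were chosen by name, as the rows with the symbols Ifnar1, Ifnar2, Ifngr1, Ifngr2, Jak1, Jak2, Tyk2, Stat2 and Stat3, out of 24346 gene symbols in each of the 6 deposited tables. All 9 were present and had a mean FPKM of at least 1, so all 9 were tested. The parental group was CT26.mMR1 (CT26_cl9 in the sample titles) in 3 replicates. The M8 group was the same MR1-overexpressing line after treatment with the mutagen N-ethyl-N-nitrosourea, cloned by limiting dilution, also in 3 replicates. M8 is a single clone, so the mutagen and the cloning cannot be told apart as the origin of a difference. M8 was sequenced because it activated a mucosal-associated invariant T cell reporter more strongly than the parental line and carried more MR1 on its surface, and the comparison asked which genes differ between them. Neither line is labelled as treated with an interferon.

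Type I interferons bind a receptor made of the Ifnar1 and Ifnar2 chains, on which the kinases Tyk2 and Jak1 sit. Interferon gamma binds Ifngr1 and Ifngr2, which carry Jak1 and Jak2. The kinases phosphorylate STAT proteins. Stat2 joins Irf9 in a complex that reads the interferon-stimulated response element (ISRE), whereas pairs of STATs such as Stat3 read the gamma-activated site (GAS). Stat3 is best known as the factor under the interleukin 6 family of cytokines, whose receptors share the chain gp130 and also use Jak1.

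FPKM values scale the fragments of a gene by its length and by the mapped fragments of the library. From the value that 1 read is worth in weakly expressed genes, 1 FPKM was estimated to stand for 23.9 to 27.0 reads per kilobase of effective transcript length in the parental libraries and for 19.4 to 22.0 reads in the M8 libraries. Between replicates of a line, Pearson's r of log2(FPKM + 1) across the genes tested, which are not independent, was 0.9935 to 0.9952. The source label is colon, but only 2 of 10 epithelial markers, Krt18 and Krt20, reached a mean of 1 FPKM, and Epcam, Cdh1, Cdx2 and Krt19 were listed at 0 in every sample. Of 9 mesenchymal markers 7 reached it, led by Vim. None of 9 T, NK and B cell markers or 5 endothelial markers reached 1 FPKM, nor did any of 8 myeloid markers other than Cd68. The summed myeloid markers lay at 4.12 to 5.49 FPKM in parental cells and at 1.48 to 2.77 FPKM in M8. Most of this sum was Cd68, at 3.77 to 4.90 FPKM in parental cells and 1.39 to 2.46 FPKM in M8. Ptprc averaged 0.0027 FPKM in parental cells and 0 in M8, and Adgre1 and Csf1r were at 0. The part of this difference in the results below was not tested.

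Among the 9 genes, Stat2 was higher in M8, Stat3 and Tyk2 were lower, and the other 6 did not pass the test. The test was limma on log2(FPKM + 1) over 10597 genes, called at an adjusted p below 0.1, the false discovery rate used in the study. It called 2250 genes (21.2%) higher and 1745 (16.5%) lower in M8, or 37.7% in all. The 3 called genes make up 33.3% of the 9, a share near that of all genes, and this count is therefore no result about the pathway. The groups of 4 members did not overlap (Stat2 above, and Ifngr1, Tyk2 and Stat3 below), against 45.2% of all genes tested. The median log2 fold change of the 9 was -0.059, against 0.0069 over all genes tested. Scaling the samples by their upper quartile changed the balance over all genes to 1157 higher and 3236 lower, and TPM changed it to 1658 and 2209. Stat2, Stat3 and Tyk2 kept their direction and their call under both scalings.

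**Figure D1:**
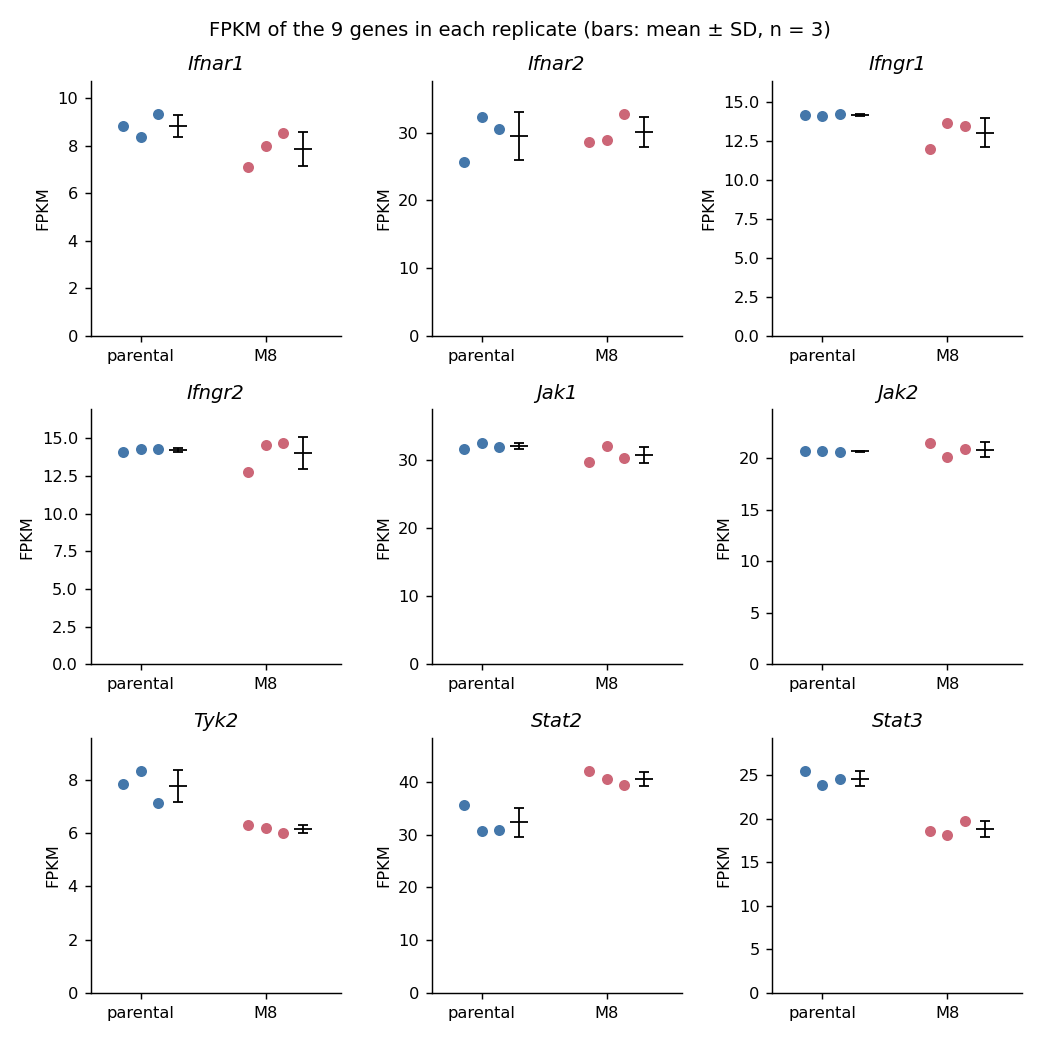
FPKM of each of the 9 genes (vertical axes, each starting at 0) in the 3 parental (blue) and 3 M8 (red) replicates, with the mean and SD of each line in black. The M8 points of Stat2 lie above, and those of Stat3 and Tyk2 below, every parental point.

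Stat2, the STAT that is largely specific to type I and type III interferons, was at 35.5, 30.7 and 30.9 FPKM in parental replicates 1 to 3 and at 42.0, 40.5 and 39.3 FPKM in the M8 replicates. The 3 M8 values lay above all parental values, a position that 24.8% of all genes tested also had. On average Stat2 rose by 25.4%, from 32.4 ± 2.73 to 40.6 ± 1.35 FPKM (SD, n = 3 each). The log2 fold change was 0.32 (95% interval 0.19 to 0.46, standard error 0.060, limma adjusted p = 0.00488). Parental replicate 1 was the highest of its line, and without it the log2 fold change was 0.39. No other annotated gene overlaps Stat2 (chromosome 10, 128270559 to 128292849, plus strand, GRCm38).

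Stat3 moved the other way. Its parental values were 25.5, 23.9 and 24.6 FPKM and its M8 values 18.6, 18.1 and 19.8 FPKM, with all M8 replicates below all parental ones, as in 20.4% of genes tested. On average Stat3 fell by 23.6%, from 24.6 ± 0.817 to 18.8 ± 0.881 FPKM (SD, n = 3 each). Its log2 fold change, -0.37 (95% interval -0.48 to -0.26, standard error 0.051, limma adjusted p = 0.00128), was the largest of the 9. Stat3 (chromosome 11, 100885098 to 100939540, minus strand) overlaps the end of Stat5a on the other strand. The libraries were made with a stranded kit, but whether strand was used in the counting is not given in the sources used here. Stat5a itself averaged 1.62 FPKM in the parental line and 1.38 FPKM in M8 and did not pass the test (limma adjusted p = 0.373).

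The 2 opposite changes altered the balance of the STATs within each sample. The ratio of Stat2 to Stat3, taken as FPKM + 1, was between 1.24 and 1.38 in the parental replicates and between 1.94 and 2.196 in the M8 replicates. On the log2 scale it averaged 0.38 ± 0.077 in the parental line and 1.07 ± 0.10 in M8 (SD over 3 samples each), a difference of 0.69. An exact two-sided permutation test gave p = 0.1, the smallest that 3 samples against 3 allow (adjusted p = 0.2 over the 6 ratios compared). The difference is larger than the spread within either line. In order of level, Stat2 and Stat3 were the first and the fourth of the 9 genes in parental cells and the first and the fifth in M8, where Jak2 stood between Ifnar2 and Stat3. The ranges of Stat2 and Jak1 overlapped in parental cells and were apart in M8.

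The bases just upstream of the start sites of Stat2 and Stat3, the pair that changed in opposite directions, are shown with those of Tyk2, the third gene called. They come from the RefSeq promoter table for GRCm38.p6 and give the 250 bases before the start, written 5′ to 3′ on the strand of the gene. Capitals mark the only match to the ISRE letters GAAANNGAAA (here read on the opposite strand), searched on both strands.
Stat2, chr10:128270248-128270497, plus strand: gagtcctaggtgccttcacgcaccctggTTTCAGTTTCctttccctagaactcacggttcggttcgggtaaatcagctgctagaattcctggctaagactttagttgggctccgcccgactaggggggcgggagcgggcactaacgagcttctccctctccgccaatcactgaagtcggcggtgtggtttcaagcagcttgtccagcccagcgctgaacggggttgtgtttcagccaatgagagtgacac
Stat3, chr11:100939541-100939790, minus strand: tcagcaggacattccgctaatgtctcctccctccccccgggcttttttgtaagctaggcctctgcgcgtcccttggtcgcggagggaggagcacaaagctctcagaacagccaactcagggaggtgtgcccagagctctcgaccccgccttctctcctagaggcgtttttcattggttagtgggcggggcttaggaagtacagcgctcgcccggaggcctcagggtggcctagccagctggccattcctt
Tyk2, chr9:21131276-21131525, minus strand: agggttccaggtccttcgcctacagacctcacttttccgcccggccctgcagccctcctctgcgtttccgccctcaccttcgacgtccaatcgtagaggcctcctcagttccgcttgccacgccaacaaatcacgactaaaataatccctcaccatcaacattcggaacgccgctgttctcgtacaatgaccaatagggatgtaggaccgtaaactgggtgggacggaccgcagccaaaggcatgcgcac

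The match in Stat2 runs from position -222 to -213 relative to the start site (chromosome 10, 128270276 to 128270285). Over the full 300 bases of the table, which also hold the first 50 transcribed bases, Stat2 was the only one of the 9 genes with these letters, and 3.44% of all 32851 promoters in the table have them. The GAS letters TTCNNNGAA, which read the same on both strands, were found in 2 of the 9, Ifnar1 and Ifnar2, and in 8.30% of all promoters. Neither motif was found in the windows of Ifngr1, Ifngr2, Jak1, Jak2, Tyk2 and Stat3. A match is a description of the letters, and binding was not measured.

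Of the kinases, only Tyk2 was called. Tyk2, which binds Ifnar1, was at 7.84, 8.31 and 7.12 FPKM in the parental replicates and at 6.29, 6.18 and 6.003 FPKM in the M8 replicates. All M8 values lay below all parental ones. On average Tyk2 fell by 20.6%, from 7.76 ± 0.5996 to 6.16 ± 0.146 FPKM (SD, n = 3 each), and its log2 fold change was -0.29 (95% interval -0.44 to -0.14, standard error 0.067, limma adjusted p = 0.0122). Tyk2 was the most weakly expressed of the 9 genes in both lines, above only 29.1% of the genes tested in parental cells. An antisense transcript, 1700084C06Rik, overlaps its locus (chromosome 9, 21104068 to 21131243, minus strand).

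Jak1, the kinase shared by both interferon receptors and by gp130, had 31.6, 32.5 and 31.8 FPKM in the parental replicates and 29.7, 32.0 and 30.2 FPKM in M8. Its groups overlapped, and the log2 fold change of -0.059 did not pass the test (95% interval -0.16 to 0.041, limma adjusted p = 0.352). Raver2 overlaps the last bases of Jak1 on the other strand, and a small nuclear RNA gene and a pseudogene lie within the locus. Jak2, which sits on Ifngr2, was close to constant, between 20.5 and 20.7 FPKM in parental cells and between 20.1 and 21.5 FPKM in M8. Its log2 fold change was 0.012 (95% interval -0.089 to 0.11, limma adjusted p = 0.866), an interval that leaves out a change of the size seen for Tyk2.

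The summed FPKM of the 3 kinases was 59.5 to 61.4 in parental cells and 57.1 to 58.3 in M8, without overlap (exact two-sided permutation test, p = 0.1). Tyk2 supplied 11.97% to 13.5% of that sum in the parental replicates and 10.5% to 10.9% in the M8 replicates. The log2 ratio of Jak1 to Tyk2 was 1.91 ± 0.090 in the parental line and 2.14 ± 0.064 in M8 (SD over 3 samples each), again without overlap (exact permutation test, p = 0.1, adjusted p = 0.2 over 6 ratios). Jak1 to Jak2 had overlapping groups (difference -0.071, exact permutation test, p = 0.4). The overlap came from M8 replicate 2, without which the difference was -0.12, and it was -0.027 without M8 replicate 1.

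**Figure D2:**
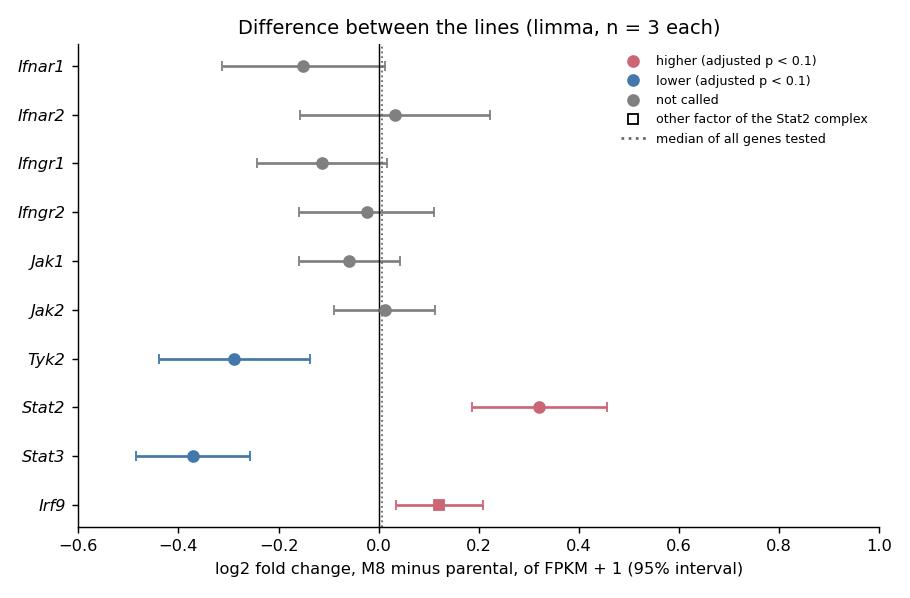
Log2 fold change of FPKM + 1, M8 minus parental (horizontal axis), with its 95% interval from limma, for the 9 genes (circles) and for Irf9 (square). Stat2 at 0.32 and Irf9 at 0.12 were called higher (red), Stat3 at -0.37 and Tyk2 at -0.29 lower (blue), and the intervals of the 6 grey genes include 0.

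No receptor chain passed the test. Ifnar1, the chain that carries Tyk2, was the chain with the lowest level and the largest difference. It had 8.82, 8.38 and 9.32 FPKM in parental cells and 7.11, 7.99 and 8.53 FPKM in M8, where the highest M8 replicate lay above the lowest parental one. The log2 fold change was -0.15 (95% interval -0.31 to 0.012, standard error 0.073, limma adjusted p = 0.148). Ifnar2, which has the longer cytoplasmic tail for STAT docking, varied most between replicates, from 25.6 to 32.4 FPKM in parental cells and from 28.7 to 32.7 FPKM in M8. Its log2 fold change of 0.033 had a 95% interval of -0.16 to 0.22 (limma adjusted p = 0.80), and it was -0.063 without parental replicate 1, the lowest sample.

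Both chains of the interferon gamma receptor were expressed at nearly equal levels. Ifngr1, the ligand-binding chain, had 14.2, 14.1 and 14.2 FPKM in parental cells and 11.99, 13.6 and 13.5 FPKM in M8. Its M8 values lay below all parental values, as those of 20.4% of all genes did, but the log2 fold change of -0.11 did not pass (95% interval -0.24 to 0.016, limma adjusted p = 0.168). Ifngr2, its partner, had 14.05 to 14.3 FPKM in the parental line and 12.8, 14.5 and 14.7 FPKM in M8, with a log2 fold change of -0.024 (95% interval -0.16 to 0.11, limma adjusted p = 0.791). M8 replicate 1 was the lowest sample for Ifnar1, Ifngr1, Ifngr2 and Jak1. Without it, the log2 fold changes of these genes were -0.088, -0.059, 0.036 and -0.037, and none was called.

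Ratios within a sample do not depend on a factor by which the whole sample is multiplied, apart from the pseudocount of 1. Quantile normalization is not such a factor and can change them. Ifngr1 to Ifngr2 was the steadiest of the 6 ratios compared. It lay between 0.989 and 1.01 in the parental replicates and between 0.923 and 0.944 in the M8 replicates, and the log2 ratio differed by -0.090, more than its SD of 0.014 and 0.019 within the lines (exact two-sided permutation test, p = 0.1, the smallest possible, adjusted p = 0.2 over 6 ratios). Ifnar1 to Ifnar2 had overlapping groups, with about 1 Ifnar1 value to 3 of Ifnar2 (ratio 0.281 to 0.369 in parental cells and 0.273 to 0.300 in M8, exact permutation test, p = 0.3). The log2 difference of -0.18 was -0.28 without parental replicate 2, where the groups did not overlap, and -0.089 without parental replicate 1. Ifnar1 to Ifngr1 overlapped as well (difference -0.037, exact permutation test, p = 0.6), with differences of -0.068 (without parental replicate 2) to -0.0041 (without parental replicate 3) when 1 sample was left out.

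**Figure D3:**
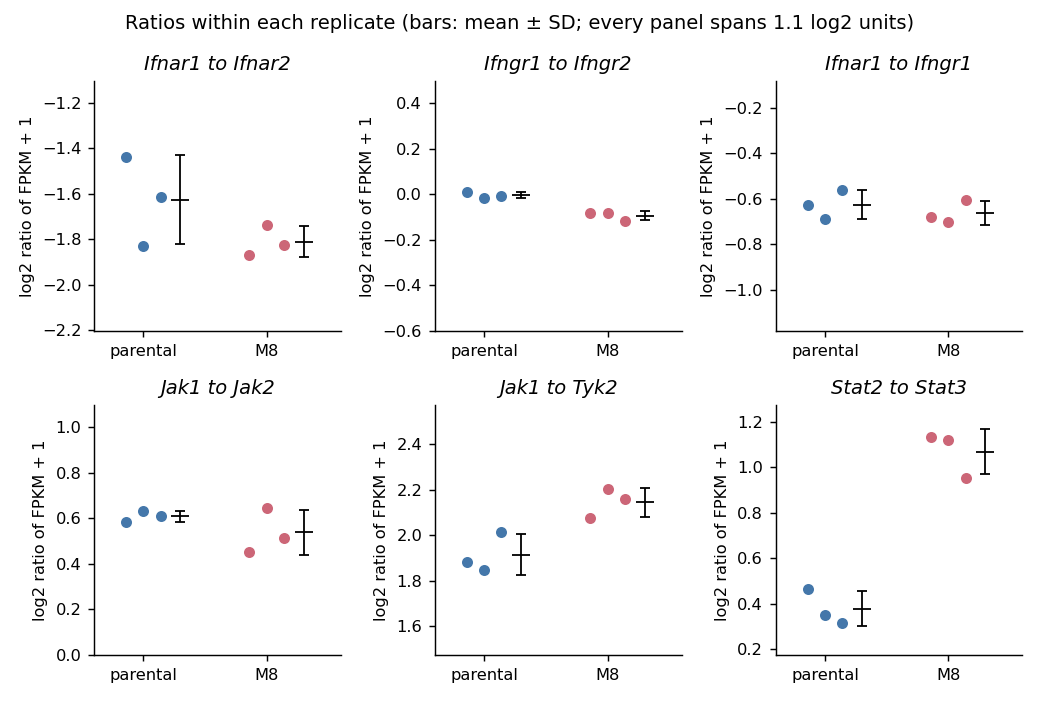
Log2 ratio of FPKM + 1 between members within each replicate, for the 3 parental (blue) and 3 M8 (red) samples, with the mean and SD in black and the same span of axis in every panel. Stat2 to Stat3 and Jak1 to Tyk2 lie higher in every M8 replicate, and Ifngr1 to Ifngr2 lies lower in every one.

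In GRCm38, Ifnar2 (91372783 to 91405589), Ifnar1 (91485238 to 91507441) and Ifngr2 (91547072 to 91565623) lie in a row on the plus strand of chromosome 16, with Il10rb between the first and the second. Gm21970 spans parts of Ifnar2 and Il10rb, so reads of Ifnar2 may be shared with it. Ifngr1 lies apart, on chromosome 10 (19591949 to 19610229), and Jak1 and Jak2 lie on chromosomes 4 (101152367 to 101265282) and 19 (29251828 to 29313080). The GAS letters in both type I receptor chains, the only members with them, are shown in capitals with 8 bases on either side. The match in Ifnar1 spans its RefSeq start site, and that in Ifnar2 runs from position -214 to -206 relative to it.
Ifnar1, chr16:91485202-91485226, plus strand: cgggggcgTTCACGGAAggggcggg
Ifnar2, chr16:91372561-91372585, plus strand: ccaaggccTTCCTGGAAgaagagag

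Irf9, the DNA-binding partner of Stat2, was also higher in M8. It rose from 42.7 ± 0.779 to 46.5 ± 0.534 FPKM (SD, n = 3 each, log2 fold change 0.12, limma adjusted p = 0.0444). The call of Irf9 was lost under TPM, quantile normalization and upper-quartile scaling (limma adjusted p = 0.180, 0.415 and 0.556) and without M8 replicate 2 or 3 (0.131 and 0.103). Rnf31 overlaps the start of Irf9 on the same strand. Jak3, the kinase of the common gamma chain receptors, fell by 0.32 on the log2 scale (limma adjusted p = 0.0273) and was not called without a filter on low values. Stat5a, Stat5b and Stat6 did not pass, and Stat4 was listed at 0 in every sample.

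The interferons themselves were near or at 0. Of 21 interferon genes, 17 were listed at 0 in all 6 samples, and none reached a mean of 1 FPKM or entered the test. Ifnb1, the type I interferon that many cell types make first, was at 0.140, 0.0737 and 0.0652 FPKM in parental cells and at 0, 0.453 and 0.248 FPKM in M8. The M8 values of Ifnb1 lie on both sides of the parental ones. Ifng was above 0 in 1 parental replicate only, at 0.125 FPKM.

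Genes that type I interferons are known to switch on were mostly higher in M8. Of 35 such target genes, all of which were tested, 30 (85.7%) were higher and none was lower, where 21.2% of all genes were higher, with a median log2 fold change of 0.31 against 0.0069 over all genes. The number higher was 22 to 33 under the alternatives tried, with medians of 0.22 to 0.34. By the largest change these were Ifi44l (log2 fold change 1.19, limma adjusted p = 0.000737), Mx1, an antiviral GTPase (0.75), and Isg15, the ubiquitin-like modifier (0.60). Isg15 rose from 302.7 ± 16.2 to 457.8 ± 12.05 FPKM (SD, n = 3 each). Of 20 interferon gamma target genes tested, 10 (50%) were higher, 1 was lower and 9 did not pass. The median log2 fold change of the 20 was 0.22. Without a filter on low values it was 0.054, taken over all 25 genes of the list, including the 5 below the filter. Gbp3, a guanylate-binding protein (0.84), and Psmb10, an immunoproteasome subunit (0.81), rose most, and Cd74, the invariant chain of MHC class II, fell by 1.67 on the log2 scale (limma adjusted p = 2.2e-05). The lists were chosen with earlier results of these data known, in which interferon target genes were already higher in M8, and are no independent support of that direction. Which interferon receptor the genes of either list answered to was not tested. In bulk samples, a gene read at a higher level in every cell and a larger share of cells reading it cannot be told apart.

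The letters GAAANNGAAA were also counted in the promoters of the gene lists. Of the type I target genes with an entry in the promoter table, 13 of 27 (48.1%) hold them, and of the interferon gamma target genes 8 of 16 (50%) do. Among all genes tested with an entry the share was 3.92%. For TTCNNNGAA the shares were 22.2%, 43.8% and 8.09%. The interferon genes themselves, near or at 0 FPKM, hold the ISRE letters in 11 of 20 promoters and the GAS letters in 10 of 20, and the Stat3 target genes hold them in 2 of 15 and 0 of 15. These shares are a description of letters in a window, and were not tested.

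**Figure D4:**
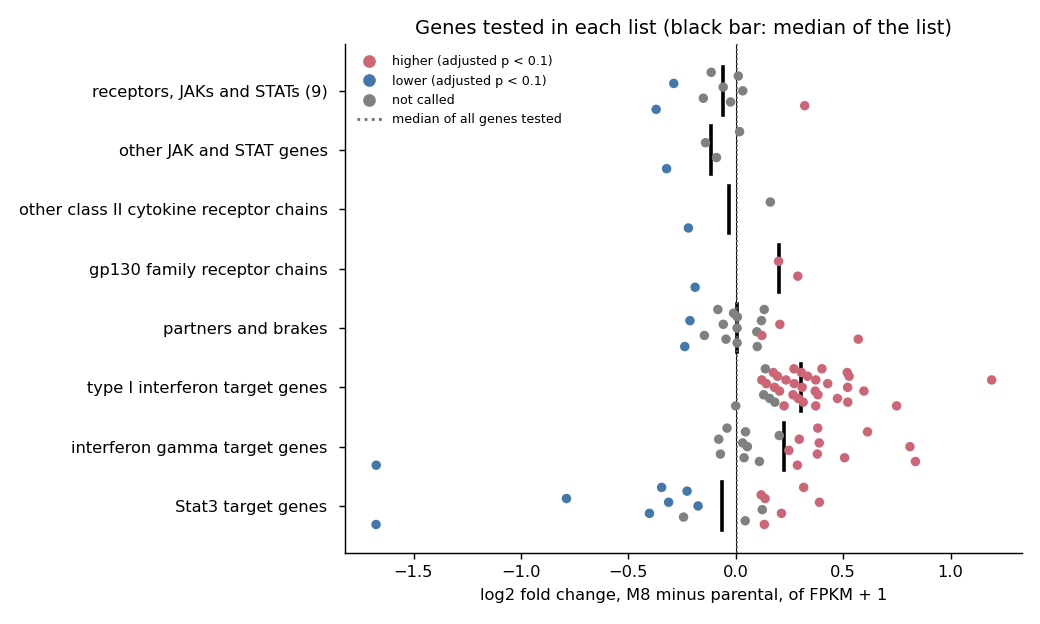
Log2 fold change of FPKM + 1, M8 minus parental (horizontal axis), of each gene tested in 8 lists, coloured by call, with the median of each list as a black bar and that of all genes as a dotted line. Type I interferon target genes lie almost entirely to the right of 0 (median 0.31), whereas the 9 receptors, JAKs and STATs spread to both sides (median -0.059).

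Of 16 known Stat3 target genes tested, 6 were higher and 7 were lower in M8, against 21.2% and 16.5% of all genes. The split depends on the scaling, with 2 higher and 7 lower under upper-quartile scaling and 3 higher and 6 lower under quantile normalization. The median log2 fold change of -0.066 turned positive without a filter on low values (0.0064) and with the filter raised to a mean of 5 FPKM (0.12). Lcn2, the siderophore-binding lipocalin, fell from 46.2 ± 9.83 to 13.8 ± 2.73 FPKM (SD, n = 3 each, log2 fold change -1.67, limma adjusted p = 0.000206). Saa3, an acute phase protein, and Pim1, a kinase, were next with log2 fold changes of -0.79 (limma adjusted p = 0.0483) and -0.40 (limma adjusted p = 0.00638). Without a filter on low values neither Saa3 nor Pim1 was called (limma adjusted p = 0.368 and 0.104). The call of Saa3 was also lost without parental replicate 1 or 3 or M8 replicate 2 or 3 (limma adjusted p = 0.133, 0.102, 0.146 and 0.149). The number higher was 3 without M8 replicate 2, and without a filter on low values 3 genes were higher and 2 lower.

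Of 8 chains of the gp130 family, whose receptors act through Stat3, 3 were tested. Il6st, which encodes gp130, rose from 52.6 ± 3.04 to 64.4 ± 2.51 FPKM (SD, n = 3 each, log2 fold change 0.29, limma adjusted p = 0.00395) and was higher in every M8 replicate. Il6ra passed narrowly upwards (0.20, limma adjusted p = 0.0862) and Il11ra1 downwards (-0.19, limma adjusted p = 0.0612). The call of Il6ra was lost under TPM, upper-quartile scaling and no filter (limma adjusted p = 0.191, 0.308 and 0.333) and that of Il11ra1 under quantile normalization (0.221), and neither passed a threshold of 0.05. The call of Il6ra was also lost without parental replicate 2 or 3 or any single M8 replicate, and that of Il11ra1 without parental replicate 2 or 3 or M8 replicate 1 or 2. Among the class II receptor chains outside the 9 genes, the interferon lambda chain Ifnlr1 was listed at 0 in every sample, Il10rb did not pass (log2 fold change 0.16, limma adjusted p = 0.111), and F3, the coagulation tissue factor, fell by 0.22 on the log2 scale (limma adjusted p = 0.0184, and 0.126 without a filter on low values, where it was not called).

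Of 17 partners and brakes of the pathway tested, Irf9 among them, 3 were higher, 2 were lower and 12 did not pass. The 5 called make up 29.4%, against 37.7% of all genes, and under upper-quartile scaling 2 were higher and 4 lower. The median log2 fold change of 0.0061 turned negative with TPM, with upper-quartile scaling and without M8 replicate 3. Usp18, which is bound by Ifnar2 and limits type I signaling, rose most, from 112 ± 2.55 to 167 ± 8.31 FPKM (SD, n = 3 each, log2 fold change 0.57, limma adjusted p = 0.000163). Socs3, the inhibitor that binds gp130 and is itself a target of Stat3, fell from 11.99 ± 1.14 to 9.99 ± 0.191 FPKM (SD, n = 3 each, log2 fold change -0.24, limma adjusted p = 0.0304), and Socs6 had a log2 fold change of -0.21 (limma adjusted p = 0.0407). Without a filter on low values neither was called (limma adjusted p = 0.174 and 0.218), nor without parental replicate 2 (0.104 and 0.133), and Socs6 was not called without M8 replicate 1 or 2 (0.146 and 0.103). Socs1, the main inhibitor under interferon gamma, did not pass (0.12, limma adjusted p = 0.235).

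By likeness of pattern over the 6 samples, Stat3 was closest to Lmbr1l (Pearson's r of log2(FPKM + 1) 0.996), Spred3 (0.996) and Bcl2l11 (0.995), out of 8546 genes that averaged 5 FPKM or more. This describes 6 points that fall into 2 lines, so it mainly ranks genes by a clean difference between them. Bcl2l11, which encodes the cell death protein Bim, fell from 6.56 ± 0.157 to 4.20 ± 0.217 FPKM (SD, n = 3 each, log2 fold change -0.54, limma adjusted p = 0.000737).

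**Figure D5:**
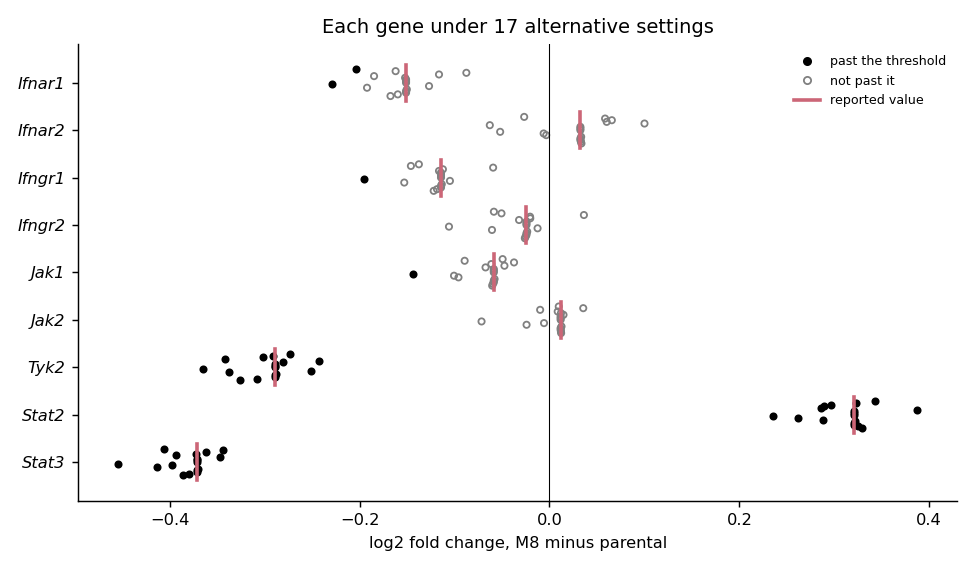
Log2 fold change, M8 minus parental (horizontal axis), of each of the 9 genes under 17 alternative settings (filled: past the threshold of that setting, open: not), with the reported value as a red bar. Tyk2, Stat2 and Stat3 keep their sign and stay filled under all 17, Ifnar1 is filled under 2 of them and Ifngr1 and Jak1 under 1.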

How the data were processed

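RNA from 3 parental CT26.mMR1 and 3 M8 replicates was sequenced by the authors as 101-base single reads from stranded mRNA libraries, mapped to mm10 with TopHat and summarised with Cufflinks. The submitters' processing notes name TopHat2 2.1.1, Bowtie2 2.2.8, SAMtools 0.1.18 and Cuffdiff 2.2.1. The gene annotation and the handling of strand and of low values are not given in the sources used here. The deposited values are FPKM, 1 column per sample, and were used as given. The study calls the replicates biological, but neither it nor the labels say whether they were separate cultures, so p-values measure the spread between these samples. Estimated mapped reads came from the step that 1 read makes in low genes with a single GENCODE M21 transcript, with a fragment length of 200 taken off the transcript length.

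The test was run on log2(FPKM + 1) of the genes that averaged 1 FPKM or more, with lmFit and eBayes (trend on) of limma 3.58.1 in R 4.3.3, without covariates, with Benjamini-Hochberg adjustment over all of them and a threshold of 0.1, and the fit was tested on simulated data. On this scale the fold changes of weakly expressed genes are understated. For ratios within a sample, a two-sided exact permutation test was used. Tables were made with Python 3.11.15, pandas 2.3.3 and numpy 2.4.6, and figures with matplotlib 3.10.9. The 17 alternatives changed the pseudocount (0.1 or 0.5), the filter (none, or a mean of 5 FPKM), the scaling (medians centred, TPM, quantiles, or the upper quartile of genes above 0), the trend (off), the threshold (0.05) or the design (a block for the replicate number), or left out 1 replicate. The members, gene lists and settings were chosen with earlier results of these data known. Named genes are the 9 members, the 3 largest called changes in each list, Irf9, and the 3 genes most like the member with the largest change; the remaining ones were named after their values were seen. Gene positions are from GENCODE M21 and promoters from RefSeq, both on GRCm38, the assembly that mm10 is. A gene of the pathway is not reported here.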

Additional observations from a re-analysis of the deposited data

How the results depend on the processing

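Tyk2, Stat2 and Stat3 kept their direction and call under all 17 alternatives, with log2 fold changes of -0.36 to -0.24, 0.24 to 0.39 and -0.45 to -0.34 and highest limma adjusted p-values of 0.0746, 0.0822 and 0.0268. Upper-quartile scaling moved the median of all genes from 0.0069 to -0.072 and added calls of Ifnar1 (-0.23), Ifngr1 (-0.20) and Jak1 (-0.14), so that 5 members were lower. With each replicate left out in turn, the log2 fold change of Ifnar1 was -0.20 to -0.088, and it passed without M8 replicate 3 (limma adjusted p = 0.0958), which made 3 members lower. The cause of these differences was not tested. The number of members higher was 1 throughout, and the number lower was 2 to 3 with a replicate left out. Ifnar2 and Jak2, with differences near 0, changed sign with TPM (-0.0034 and -0.024), quantile normalization (-0.0061 and -0.0057) and upper-quartile scaling (-0.052 and -0.072). With a replicate left out, Ifnar2 ranged from -0.063 (without parental replicate 1) to 0.10 and was -0.027 without M8 replicate 3, Jak2 ranged from -0.0098 to 0.036, and Ifngr2 from -0.059 to 0.036 (without M8 replicate 1).

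Over all genes, dropping the filter on low values gave 1284 higher and 898 lower, and upper-quartile scaling gave 1157 and 3236. With a replicate left out, the higher genes numbered 1591 to 2100 and the lower ones 1142 (without M8 replicate 1) to 1681. The median of the other class II receptor chains, 2 genes tested, was 0.0 without a filter, where it is taken over all 8 chains, 4 of them at 0 in every sample, and -0.087 to 0.019 with a replicate left out (0.019 without M8 replicate 1). That of the partners and brakes was -0.028 with TPM, -0.070 with upper-quartile scaling and -0.0005 (without M8 replicate 3) to 0.0229 with a replicate left out, and that of the Stat3 target genes 0.0064 without a filter, over all 18 genes, and 0.12 with a mean FPKM of at least 5 (-0.15 with upper-quartile scaling, and -0.025 without M8 replicate 1). Same-numbered replicates of both lines did not deviate together (correlations of 0.10, -0.11 and -0.033), so the numbers were not taken as pairs. The replicate block gave 2171 higher and 1688 lower genes, changed no call among the members and left the log2 fold changes of Stat2, Stat3 and Tyk2 at 0.32, -0.37 and -0.29. The estimated depth allows the levels of the members to be read, but the 95% intervals of the 6 members that were not called include 0, that of Ifnar1 at a difference of -0.15 among them.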
